A study of Mus musculus with 2 samples.

Results

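Metallothioneins are small, cysteine-rich proteins that bind zinc and copper, buffer free zinc and take up toxic metals such as cadmium. Mt1 and Mt2 are the broadly expressed forms in the mouse, and their transcripts are known to rise with zinc, glucocorticoids, inflammatory cytokines and oxidative stress. Mtf1 is the zinc-finger transcription factor that senses zinc and binds metal response elements in the promoters of these genes.

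The members described here are Mt1, Mt2 and Mtf1, taken as every probe set whose only annotated gene was 1 of the 3. This gave 5 probe sets of 22690, and 3 genes of 12393. The members were picked from the difference between the arrays described below, so their values are a description and were not tested. RNA was measured on 1 array of eosinophils (sorted as CD11b+, CD11c intermediate, MHCII- and SiglecF+) and 1 array of dendritic cells (sorted as CD11c+ and MHCII+). Both populations came from the small intestinal lamina propria of C57BL/6 mice aged 8 weeks, and both were labelled unstimulated. The sources used here do not give the number of mice sorted. There were no replicate arrays, so no value below has a replicate error.

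Values are linear MAS5 signals in arbitrary units, 1 per probe set, on arrays that shared a global scale. Ratios were taken after raising signals to a floor of 134.7 units, the median over both arrays pooled. Of all probe sets, 52.8% were above the floor in eosinophils and 47.2% in dendritic cells. Where 1 of the signals was under the floor the ratio is a bound, written "at least". Log2 differences are eosinophils minus dendritic cells, so a negative value means a lower signal in eosinophils. The gates were visible in the signals. Siglecf gave 6977 units in eosinophils against 112.3 units in dendritic cells, whereas the MHC class II chains H2-Aa, H2-Ab1 and H2-Eb1 gave 155.4, 107.5 and 246.8 units in eosinophils against 34015, 31759 and 41365 units in dendritic cells. Itgax (CD11c) gave 4846 units in eosinophils against 5994 units in dendritic cells. Itgam (CD11b) gave 227.0 units in eosinophils against 87.1 units in dendritic cells. Of the 8 eosinophil markers on the array, 7 were above the floor in eosinophils and 1 in dendritic cells, and of the 11 dendritic cell markers, 5 were above it in eosinophils and 11 in dendritic cells. Alox15 (9996 units in eosinophils, 20.5 units in dendritic cells), Adgre1 (12076 units in eosinophils, 326.9 units in dendritic cells) and Ccr3 (4377 units in eosinophils, 122.9 units in dendritic cells) were among the eosinophil markers, and the invariant chain Cd74 (605.8 units in eosinophils, 64399 units in dendritic cells) among those of dendritic cells. Prg2, the major basic protein of eosinophil granules, was under the floor on the eosinophil array, at 73.0 units.

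The promoters of Mt1 and Mt2 are shown because these are the genes that differed together, and because the elements that Mtf1 binds lie in such promoters. They are RefSeq sequences of build GRCm38.p6, each with 250 bases before and 50 bases from the annotated start, on the + strand of chromosome 8. Mt1 lies in the window chr8:94178839-94179138 and Mt2 in chr8:94172368-94172667. Capitals mark matches to the core of the metal response element, searched as TGCACNC or TGCGCNC on both strands, so that a match on the minus strand reads as its reverse complement.
Mt1: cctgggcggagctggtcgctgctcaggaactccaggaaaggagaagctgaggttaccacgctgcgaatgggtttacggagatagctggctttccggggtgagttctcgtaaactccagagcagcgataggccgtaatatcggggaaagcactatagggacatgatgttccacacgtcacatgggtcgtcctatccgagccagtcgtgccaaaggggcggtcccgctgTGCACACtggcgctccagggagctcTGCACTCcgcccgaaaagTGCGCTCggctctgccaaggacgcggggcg
Mt2: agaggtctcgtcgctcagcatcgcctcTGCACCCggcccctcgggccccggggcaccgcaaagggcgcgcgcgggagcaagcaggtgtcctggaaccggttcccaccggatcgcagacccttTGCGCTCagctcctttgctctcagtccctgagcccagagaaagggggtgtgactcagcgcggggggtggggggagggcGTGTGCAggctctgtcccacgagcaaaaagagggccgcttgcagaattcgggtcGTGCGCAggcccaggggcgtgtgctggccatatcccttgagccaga

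The Mt1 window held 3 matches, all on the + strand, and the Mt2 window held 4, with 2 on each strand. Counted from the annotated start, the Mt1 matches began at bases -23, 3 and 21, and the Mt2 matches at -223, -128, -50 and 5. Matches thus lay on both sides of the annotated start, and whether transcription began there in these cells was not tested. The counts are those of the windows, and bases outside them were not searched. No matches overlapped one another. Of 32851 RefSeq promoter windows of the same length, 25.7% held at least 1 match, 1.97% at least 3 and 0.517% at least 4. The windows of Mt3 and Mt4, the other genes of the cluster, held 1 match each. The window of Mtf1, on chromosome 4, held 0, which says only that these letters are not in that window. A match is a string of letters and was not tested as a binding site. Because the element is known from metallothionein promoters, the counts in Mt1 and Mt2 are a description only.

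Both broadly expressed metallothioneins were far lower in eosinophils than in dendritic cells, and in eosinophils neither rose above the floor. Mt1 gave 71.8 units in eosinophils against 14814 units in dendritic cells with the probe set 1422557_s_at. The dendritic cell signal was at least 109.9-fold higher, a log2 difference of -6.78 or below. Mt2 gave 39.6 units in eosinophils against 2376 units in dendritic cells with its only probe set, 1428942_at. The dendritic cell signal was at least 17.6-fold higher, a log2 difference of -4.14 or below. Without the floor the signals stood 206.2-fold apart for Mt1 and 60.0-fold apart for Mt2, but with both eosinophil signals under the floor only the bounds are used here. In a bulk sort, fewer cells of a type and less RNA per cell cannot be told apart.

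**Figure D1:**
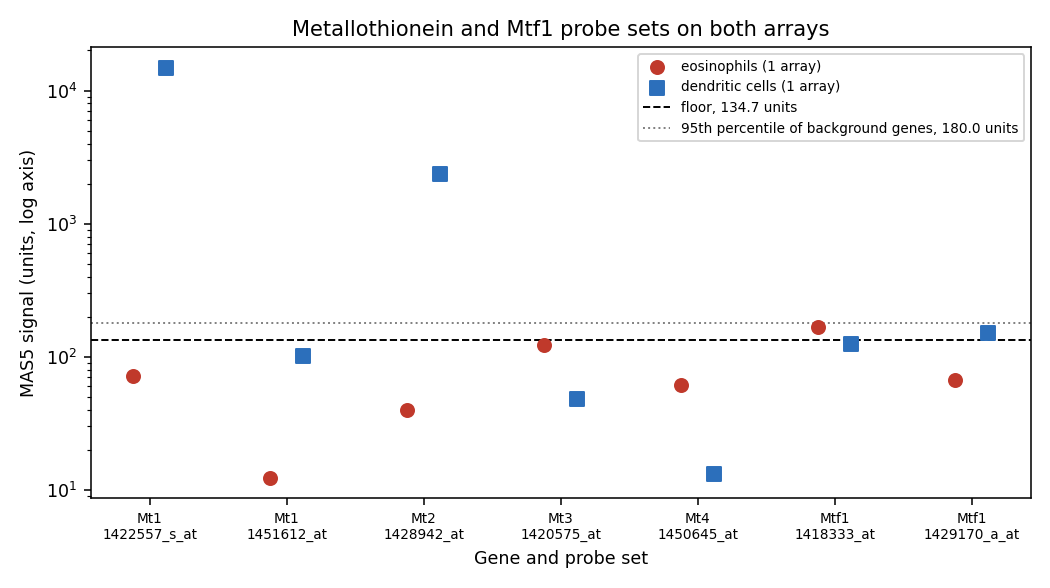
MAS5 signal (log axis) of each metallothionein and Mtf1 probe set, with 1 point for the eosinophil array and 1 for the dendritic cell array. The dashed line is the floor of 134.7 units and the dotted line the 95th percentile of background genes, 180.0 units; the dendritic cell points of 1422557_s_at (Mt1, 14814 units) and 1428942_at (Mt2, 2376 units) lie far above both lines and all other points lie under 180.0 units.

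The Mt1 result rests on 1 of its 2 probe sets. The second, 1451612_at, lay below the floor in both populations, with 12.4 units in eosinophils against 101.0 units in dendritic cells, and so gave no ratio. Averaged over both probe sets on the log2 scale, the Mt1 difference became -3.18, still a bound. The suffix s_at marks probes that can match more than 1 transcript, and whether 1422557_s_at also reads Mt2 was not tested. The Mt2 probe set has no accession in the platform annotation. Across the array, the log2 difference varied between probe sets of 1 gene with a pooled SD of 0.73 (4402 probe sets and 1766 genes, measured above the floor on both arrays), a measure of how far probe sets disagree and not of the spread between animals.

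Mt3 and Mt4 had 1 probe set each and stayed under the floor on each array. Mt3, known mainly from brain, gave 122.9 units in eosinophils against 48.2 units in dendritic cells. Mt4, known mainly from stratified epithelium, gave 61.0 units in eosinophils against 13.3 units in dendritic cells. Neither was measurable here, and no ratio is given.

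Mtf1 showed no detectable difference at this brightness. Its probe set 1418333_at gave 168.7 units in eosinophils against 124.8 units in dendritic cells, at least 1.25-fold higher in eosinophils. Its other probe set, 1429170_a_at, gave 67.6 units in eosinophils against 149.95 units in dendritic cells, a bound of 1.11-fold in the other direction. The probe sets pointed in opposite directions, and all 4 signals lay under the 95th percentile of a background list of germ cell, lens, hair and olfactory genes (180.0 units). The sign for the gene also turned, to -0.46 on the log2 scale, when the arrays were centred on their hybridisation spike controls, and the value was -0.15 with the probe set of smaller difference and -0.022 with the mean of both.

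Set against all genes, 0 of the 3 members were brighter in eosinophils by 4-fold or more, and 2, Mt1 and Mt2, were brighter in dendritic cells by that much. Over the 7994 genes above the floor on at least 1 array, 5.35% passed 4-fold on the eosinophil side and 5.35% on the dendritic cell side, or 428 genes each. Nothing is read from the members' count, because the same contrast chose them. The even split of the 428 and 428 genes follows the scaling: it became 316 in eosinophils and 572 in dendritic cells with the arrays centred on their medians, 856 in eosinophils and 253 in dendritic cells with centring on housekeeping genes, and 151 in eosinophils and 1231 in dendritic cells with centring on the spike controls. Of all 12393 genes, 7.85% were, like Mt1 and Mt2, above the floor in dendritic cells only.

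**Figure D2:**
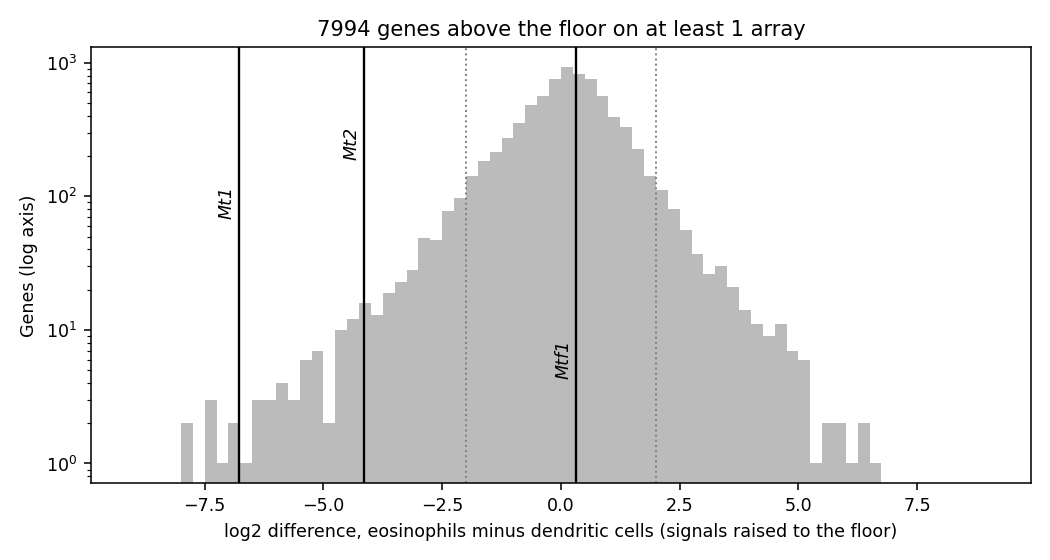
Distribution of the log2 difference, eosinophils minus dendritic cells, over 7994 genes above the floor on at least 1 array (gene counts on a log axis, dotted lines at 4-fold). Mt1 at -6.78 and Mt2 at -4.14 lie in the tail on the dendritic cell side, and Mtf1 at 0.32 lies near the median of 0.16.

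Likeness of pattern was measured as the gap in log2 difference to genes with the same floor status, which rests on 2 arrays and carries no claim of shared function or control. Where the eosinophil signals are all raised to the floor, this gap is only that between the dendritic cell signals of different probe sets, so the genes named are alike in their bounds and not in a measured ratio. Among the 972 other genes that rose above the floor on the dendritic cell array alone, the nearest to Mt1 were the chemokine Ccl17 (82.5 units in eosinophils, 18045 units in dendritic cells), the MHC class II chain H2-Ea (103.1 units in eosinophils, 11953 units in dendritic cells) and Errfi1, a feedback inhibitor of EGF receptor signalling (79.5 units in eosinophils, 11773 units in dendritic cells). Their gaps were 0.28, 0.31 and 0.33. The nearest to Mt2 were Serpinb9, a granzyme B inhibitor (9.80 units in eosinophils, 2424 units in dendritic cells), the AP-1 factor Fosb (96.7 units in eosinophils, 2322 units in dendritic cells) and the BAFF receptor Tnfrsf13c (22.2 units in eosinophils, 2462 units in dendritic cells), with gaps of 0.029, 0.033 and 0.052. For Mtf1 the nearest of 1631 genes above the floor in eosinophils only were Six3, Dolpp1 and Cdc7, at 168.5 to 168.6 units in eosinophils. Their eosinophil signals, too, lay under 180.0 units, so this likeness is that of dim probe sets.

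The 4 metallothionein genes lie side by side on chromosome 8 in the order Mt4, Mt3, Mt2, Mt1, and the genes around them did not all share their pattern. Directly next to Mt1, the nuclear pore gene Nup93 gave 313.1 units in eosinophils against 585.1 units in dendritic cells, a log2 difference of -0.90. On the other flank, Bbs2, a component of the ciliary BBSome, gave 106.7 units in eosinophils against 234.8 units in dendritic cells, at least 1.74-fold apart. Of the 7 flanking genes with a probe set, among the nearest 5 protein-coding genes on each side, only Herpud1, a gene of endoplasmic reticulum stress, was at least 4-fold apart. It gave 365.7 units in eosinophils against 5092 units in dendritic cells, 13.9-fold brighter in dendritic cells, although its second probe set was only 1.59-fold apart. Gnao1 and Slc12a3 were under the floor on both arrays and could not pass. Over all genes 5.35% passed 4-fold on each side, so nothing is read from this count. Cpne2, a copine, lay on the other side of 0, with 462.4 units in eosinophils against 184.4 units in dendritic cells.

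**Figure D3:**
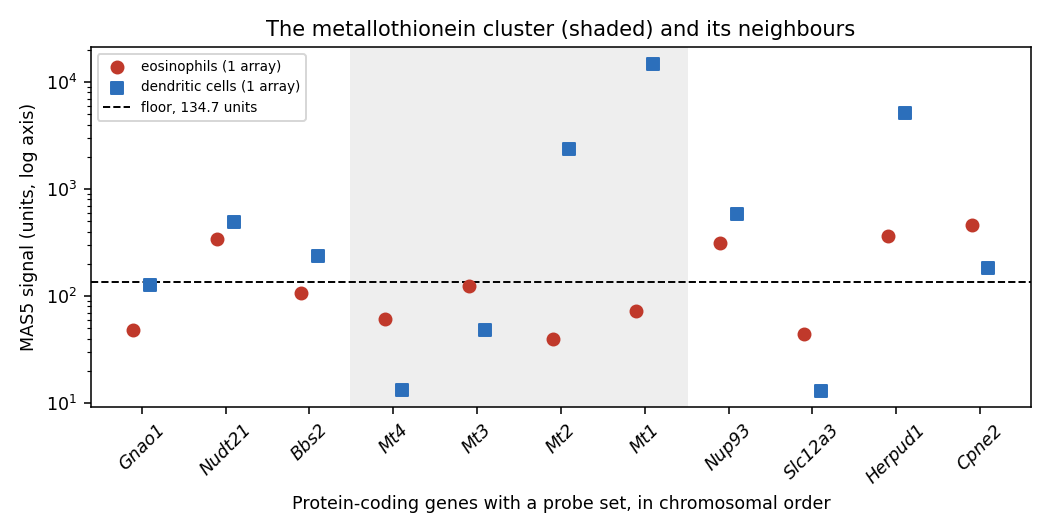
MAS5 signal (log axis) on the eosinophil and dendritic cell arrays for the metallothionein cluster (shaded) and the flanking protein-coding genes that have a probe set, in chromosomal order. Mt2 and Mt1 separate the arrays, Mt4 and Mt3 stay under the floor of 134.7 units on both, and of the flanking genes Herpud1 shows the widest gap (365.7 units in eosinophils, 5092 units in dendritic cells).

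Genes reported as Mtf1 targets other than the metallothioneins had lower signals in eosinophils where they were measured, 1 of them past 4-fold. Of 8 listed, 7 were on the array and 5 above the floor on an array. Of these 5, 0 passed 4-fold on the eosinophil side and 1 on the dendritic cell side, beside 5.35% of all genes on each side. The median log2 difference was -1.07, beside 0.16 over all genes above the floor. It lay at -0.44 with centring on housekeeping genes and at -1.97 with centring on the spike controls, where 3 of 6 measured members passed 4-fold on the dendritic cell side. Slc30a1, the zinc exporter of the plasma membrane and a standard target of Mtf1, was below the floor in both populations, with 40.3 units in eosinophils against 19.5 units in dendritic cells.

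Ndrg1, a stress gene that responds to metals and low oxygen, was the target past 4-fold. It gave 72.3 units in eosinophils against 10128 units in dendritic cells, at least 75.2-fold apart. Its 5 probe sets all had a lower signal in eosinophils, but ranged from -0.90 to -6.23 on the log2 scale. Pgf, placental growth factor, gave 14.2 units in eosinophils against 429.1 units in dendritic cells, at least 3.18-fold brighter there. The selenoprotein Selenow gave 9181 units in eosinophils against 19260 units in dendritic cells (log2 difference -1.07), and the LIM protein Csrp1 gave 89.8 units in eosinophils against 216.9 units in dendritic cells, at least 1.61-fold apart. Gclc, which starts glutathione synthesis, gave 234.7 units in eosinophils against 361.9 units in dendritic cells, and its second probe set pointed the other way, with 276.5 units in eosinophils against 208.1 units in dendritic cells. The sign for Gclc also turned, to a difference near 0, with centring on housekeeping genes.

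Zinc transporters did not separate the arrays at 4-fold on the deposited scale. Over all genes 5.35% passed 4-fold on each side, so counts of 0 in lists this short are near that share. Of 14 zinc importers of the ZIP family, 10 were on the array and 9 above the floor on an array, with 0 past 4-fold in either direction and a median of -0.14. Slc39a1, a ZIP protein of the plasma membrane, gave 1292 units in eosinophils against 4216 units in dendritic cells, 3.26-fold brighter in dendritic cells. Slc39a6 (174.8 units in eosinophils, 468.1 units in dendritic cells) and Slc39a7, which releases zinc from the endoplasmic reticulum (356.7 units in eosinophils, 945.8 units in dendritic cells), were 2.68-fold and 2.65-fold brighter in dendritic cells. Slc39a9 went the other way, with 473.2 units in eosinophils against 13.3 units in dendritic cells, at least 3.51-fold, although its other 2 probe sets gave 1.08-fold and no ratio.

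Of 10 zinc exporters of the ZnT family, 8 were on the array and 5 above the floor on an array, again with 0 past 4-fold and a median of 0.25. The early secretory pathway transporter Slc30a5 gave 1865 units in eosinophils against 1240 units in dendritic cells, and Slc30a9 gave 2036 units in eosinophils against 1316 units in dendritic cells. Slc30a4 gave 233.7 units in eosinophils against 415.8 units in dendritic cells, and Slc30a7 gave 311.6 units in eosinophils against 371.8 units in dendritic cells. All of these were under 2-fold apart. The signs of Slc30a5, Slc30a7 and Slc30a9 turned under another scaling, while that of Slc30a4 was negative under each scaling tried. The ZIP median lay between -1.10 (spike controls) and 0.11 (housekeeping genes), and only the latter setting made it positive. The ZnT median lay between -0.87 and 0.88 under the same settings and took both signs under the other scalings too. No direction is read for either family. The ZIP count depended on the scale too: 3 members passed 4-fold on the dendritic cell side with centring on the spike controls, and 1 on the eosinophil side with centring on housekeeping genes, while the ZnT count stayed at 0 under each scaling tried.

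**Figure D4:**
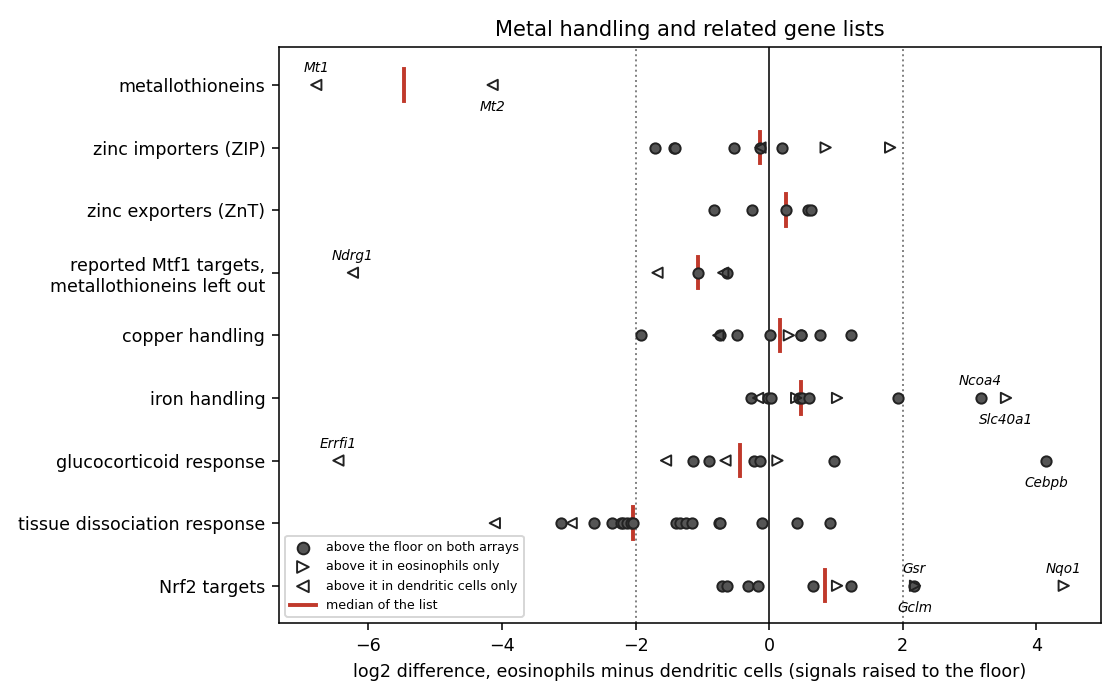
Log2 difference, eosinophils minus dendritic cells, of each member above the floor on at least 1 array, for the metal handling lists and the glucocorticoid, tissue dissociation and Nrf2 lists; filled circles were above the floor on both arrays, open triangles on 1 array only and so bounds, and bars mark the median of each list. Dotted lines mark 4-fold; of the genes plotted, Mt1, Errfi1, Ndrg1 and Mt2 lie furthest to the dendritic cell side, whereas the zinc and copper lists stay within 4-fold on the deposited scale plotted.

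Copper handling genes also stayed within 4-fold on the deposited scale, each taken by its probe set of highest mean log2 signal. This, too, is near the share of 5.35% of all genes on each side. Of 12 listed, 11 were on the array and 10 above the floor on an array, with 0 past 4-fold and a median of 0.16, which was -1.10 with centring on the spike controls. With that centring, and with centring on the medians, 1 gene passed 4-fold on the dendritic cell side. Atox1, the cytosolic copper chaperone, came nearest, with 4663 units in eosinophils against 17562 units in dendritic cells, 3.77-fold brighter in dendritic cells. Its second probe set passed 4-fold at a log2 difference of -2.14, and its remaining probe set gave 159.1 units in eosinophils against 9.37 units in dendritic cells, the opposite way. Slc31a2, a copper transporter, gave 363.0 units in eosinophils against 155.0 units in dendritic cells. Atp7a, the copper pump, gave 895.4 units in eosinophils against 527.9 units in dendritic cells, and Sco2, a copper chaperone of cytochrome oxidase, gave 85.3 units in eosinophils against 228.3 units in dendritic cells. For Cp, ceruloplasmin, 1 of 7 probe sets passed 4-fold, with 578.8 units in eosinophils against 17.5 units in dendritic cells, at least 4.30-fold, whereas the probe set that stood for the gene gave at least 1.23-fold. The sign for Atp7a turned with centring on the spike controls.

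The 2 iron genes past 4-fold were brighter in eosinophils. Of 15 listed, 14 were on the array and 12 above the floor on an array, of which 2 passed 4-fold on the eosinophil side and 0 on the dendritic cell side. Over all genes 5.35% passed 4-fold on each side. Slc40a1, the iron exporter ferroportin, gave 1575 units in eosinophils against 11.2 units in dendritic cells, at least 11.7-fold. Ncoa4, the receptor that delivers ferritin for degradation, gave 4605 units in eosinophils against 513.1 units in dendritic cells, 8.97-fold. Fth1, ferritin heavy chain, gave 35528 units in eosinophils against 9330 units in dendritic cells, 3.81-fold, with its second probe set at 7.91-fold. Hmox1, haem oxygenase, gave 272.7 units in eosinophils against 70.7 units in dendritic cells, at least 2.02-fold. The second probe sets of Slc40a1 and Ncoa4 pointed the same way but gave smaller bounds, at least 1.90-fold and at least 2.67-fold. The list median of 0.47 became -0.58 with centring on the spike controls. The count on the eosinophil side was 3 with quantile normalization, with loess and with centring on housekeeping genes.

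Over all metal lists together, 43 of 60 genes were above the floor on an array, and 5 passed 4-fold: Slc40a1 and Ncoa4 were brighter in eosinophils, and Mt1, Mt2 and Ndrg1 in dendritic cells. Without Mt1 and Mt2, 2 of 41 genes passed 4-fold in eosinophils and 1 in dendritic cells, with a median of 0.019. Over all genes above the floor the share was 5.35% on each side, so no result about metal handling is read from these counts.

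Other genes were also brighter on the dendritic cell array. Genes known to respond to tissue dissociation, a class in which Mt1 and Mt2 are often counted, were brighter by 4-fold or more in dendritic cells for 10 of the 19 on the array, and in eosinophils for 0. Over all genes the share was 5.35% on each side. The list median was -2.03, beside 0.16 over all genes above the floor. Their summed signal was 37665 units in eosinophils against 79086 units in dendritic cells. The count in dendritic cells ranged from 3 with centring on housekeeping genes to 14 with centring on spike controls.

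Fosb, named above, lay furthest apart in that list. The heat shock genes Hspa1b (219.6 units in eosinophils, 1906 units in dendritic cells) and Hspb1 (33.4 units in eosinophils, 1046 units in dendritic cells) and the stress factor Atf3 (382.1 units in eosinophils, 2345 units in dendritic cells) followed. The other probe sets of Hspa1b gave 1.77-fold and no ratio. The immediate early gene Egr1 did not share the pattern, with 4137 units in eosinophils against 3091 units in dendritic cells. Nor did Jund, with 14467 units in eosinophils against 7718 units in dendritic cells. The signs of both turned under another scaling. The part of handling or sorting in the metallothionein difference was not tested.

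Glucocorticoid response genes, also known to move with metallothioneins, did not all point the same way. Of 10 above the floor on an array, 1 passed 4-fold on the eosinophil side, the transcription factor Cebpb (2584 units in eosinophils, 146.0 units in dendritic cells), and 1 on the dendritic cell side, Errfi1, whose second probe set gave only 1.33-fold. The clock gene Per1 gave 58.0 units in eosinophils against 392.7 units in dendritic cells, and the kinase Sgk1 gave 4709 units in eosinophils against 10371 units in dendritic cells. Over all genes the share past 4-fold was 5.35% on each side. The list median was -0.44. It was 0.084 with centring on housekeeping genes and negative under each other scaling tried. That centring left the housekeeping genes themselves at a median of 0.54. With centring on the spike controls the list median was -1.26, and 1 of 11 passed 4-fold on the eosinophil side and 4 on the dendritic cell side.

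Markers of other cells that a lamina propria sort can hold were also read. Of all 12393 genes, 5389 were above the floor on both arrays, 1632 in eosinophils only and 973 in dendritic cells only. Marker counts near such shares are not read as the presence or absence of a cell type. Of 11 macrophage markers, 3 were above the floor in eosinophils and 6 in dendritic cells, with sums of 2439 units in eosinophils against 14965 units in dendritic cells. Lyz2 (99.2 units in eosinophils, 7813 units in dendritic cells), Cd14 (100.01 units in eosinophils, 2641 units in dendritic cells), Cd68 (672.4 units in eosinophils, 2573 units in dendritic cells) and C1qb (37.5 units in eosinophils, 363.3 units in dendritic cells) were brighter in dendritic cells, while Mertk, Fcgr1, Mrc1, C1qc and Cx3cr1 were under the floor there. Csf1r (762.6 units in eosinophils, 1121 units in dendritic cells) and C1qa (14.7 units in eosinophils, 153.2 units in dendritic cells) were also above the floor in dendritic cells. Of 12 markers of intestinal epithelium, a tissue rich in metallothioneins, 4 were above the floor in eosinophils and 5 in dendritic cells, with sums of 2032 units in eosinophils against 1912 units in dendritic cells. Cdh1, Krt8, Krt18, Krt19, Krt20, Vil1 and Fabp1 were under the floor in dendritic cells, while Epcam (433.3 units in eosinophils, 336.4 units in dendritic cells), Apoa1 (179.5 units in eosinophils, 228.9 units in dendritic cells), Fabp2 (79.1 units in eosinophils, 226.1 units in dendritic cells), Apoa4 (26.9 units in eosinophils, 203.4 units in dendritic cells) and Cldn7 (26.0 units in eosinophils, 530.2 units in dendritic cells) were above it. Krt18 was the only epithelial marker past 4-fold, with 869.6 units in eosinophils against 60.7 units in dendritic cells.

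Of 4 Paneth cell markers, 1 was above the floor in eosinophils and 2 in dendritic cells, with sums of 792.5 units in eosinophils against 10086 units in dendritic cells. Lyz1 gave 109.5 units in eosinophils against 9472 units in dendritic cells. Its second probe set gave at least 50.8-fold the same way, and its remaining probe set at least 1.02-fold. However, Lyz1 and Lyz2 are near-identical genes whose probes may not tell them apart. Itln1 gave 669.8 units in eosinophils against 541.0 units in dendritic cells. The Paneth markers Mmp7 and Pla2g2a were under the floor in both populations. Of 6 T cell markers, 2 were above the floor in eosinophils and 3 in dendritic cells, with sums of 540.8 units in eosinophils against 4928 units in dendritic cells, mostly Cd8a (140.9 units in eosinophils, 3732 units in dendritic cells), a gene that some dendritic cells also express. Cd3e gave 335.6 units in eosinophils against 557.0 units in dendritic cells, and Thy1 gave 9.57 units in eosinophils against 438.2 units in dendritic cells. Of 5 B and plasma cell markers, 1 was above the floor on each array (Xbp1), with sums of 3067 units in eosinophils against 1123 units in dendritic cells. Of 7 mast cell markers, 0 were above it in eosinophils and 1 in dendritic cells (Kit), with sums of 428.2 units in eosinophils against 693.1 units in dendritic cells. Of 8 markers of stroma and endothelium, 4 were above it in eosinophils and 1 in dendritic cells, with sums of 2128 units in eosinophils against 657.2 units in dendritic cells. Pdgfra (789.1 units in eosinophils, 54.8 units in dendritic cells), Pecam1 (646.7 units in eosinophils, 55.8 units in dendritic cells) and Cdh5 (195.3 units in eosinophils, 31.0 units in dendritic cells) were brighter in eosinophils, and Col1a1 (99.2 units in eosinophils, 225.3 units in dendritic cells) in dendritic cells. The part of these cells in the metallothionein difference was not tested.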

How the data were processed

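RNA from 2 sorted populations was measured on 1 array each. Total RNA was extracted with Trizol and made into labelled cDNA with an Ovation kit, per the labels' protocols. The authors deposited linear signal intensities; the submitters' processing notes name MAS5, version 5.0. No detection calls, probe-level background or genome build are given in the sources used here. The mean without the lowest and highest 2% of signals was 500.2 units for eosinophils and 500.3 for dendritic cells.

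Probe sets were named from the platform annotation, which is of an older date: 20393 had 1 gene, 691 had several and 1606 were not listed, and names of 20364 were updated through the Entrez identifier with RefSeq GRCm38.p6. Each gene was represented by its probe set of highest mean log2 signal. The fold threshold was 4. With 1 array per group, no test was possible and precision is limited by the number of arrays.

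The members and the gene lists were chosen with earlier results of these data known. Genes named are the members, the 4 most different measured members of each list (fewer where fewer were measured, and none of the background list), the 3 genes nearest to each member, and the sort markers. The flanking genes, Slc30a1, Egr1, Jund, Gclc, Cp, Prg2, Epcam, Apoa1, Csf1r, C1qa, Srxn1, Txn1, Txnrd1 and the markers listed under the floor were also named. Some of them were named after their values were seen. Computations used Python 3.11.15, pandas 2.3.3 and statsmodels 0.14.6, and were tested on simulated data. Alternatives were 5 scalings, 3 floors, 2 other ways to represent a gene, and fold thresholds of 2 and 10. Centring on housekeeping genes took the median over all their probe sets, with the control probe sets of Actb and Gapdh among them. The 11 housekeeping genes had a median log2 difference of -0.090 on the deposited scale and 0.54 after this step. It therefore did not centre them gene by gene.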

Additional observations from a re-analysis of the deposited data

How the results depend on the processing

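Mt1 and Mt2 were more than 4-fold brighter in dendritic cells under all 10 alternatives tried for them, with log2 differences (eosinophils minus dendritic cells) from -7.69 to -3.18 for Mt1 and from -5.91 to -3.72 for Mt2. Not every alternative could change a value. Mt2 has 1 probe set, so averaging and the probe set of smallest difference left it at -4.14. For Mt1 the latter choice took probe sets above the floor first. It therefore could not take 1451612_at, and the value stayed at -6.78. The Mt1 and Mt2 values that moved by more than the probe set SD came from lower floors and from averaging. With the floor at the 25th percentile, Mt1 was -7.69 and Mt2 -5.84, and with no floor they were -7.69 and -5.91. Averaging its probe sets took Mt1 to -3.18. Mtf1 ranged from -0.46, with centring on the spike controls, to 0.62, and the former was also a move of more than the probe set SD.

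Counts of genes past 4-fold moved more. They were 856 in eosinophils and 253 in dendritic cells with centring on housekeeping genes, 151 in eosinophils and 1231 in dendritic cells with centring on spike controls, 844 in eosinophils and 665 in dendritic cells with the floor at the 25th percentile, 1901 in eosinophils and 1460 in dendritic cells with no floor, and 274 in eosinophils and 269 in dendritic cells with the probe set of smallest difference. A 2-fold threshold gave 1519 in eosinophils and 1241 in dendritic cells, and a 10-fold threshold 105 in eosinophils and 124 in dendritic cells. Of the metal handling genes, 5 passed 4-fold as reported, 11 with centring on spike controls, 11 with no floor, 2 with the probe set of smallest difference and 15 at 2-fold. The cause was not tested beyond what each alternative changes by construction. The median log2 difference of all genes shifted by -0.21 with median centring, -0.11 with quantile normalization, -0.15 with loess, 0.44 with centring on housekeeping genes and -0.84 with centring on spike controls.

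Every Mtf1 signal above the floor of 134.7 units lay under 180.0 units, the 95th percentile of background genes. No paired analysis was possible because each group has 1 array.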

Other observations

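Targets of Nrf2, the factor that answers oxidative stress, were also read. The part of oxidative stress in the metallothionein difference was not tested. Of 10 on the array, 3 passed 4-fold on the eosinophil side and 0 on the dendritic cell side, beside 5.35% of all genes in each direction, and the median log2 difference was 0.84, or -0.18 with centring on the spike controls. The count on the eosinophil side fell to 2 with centring on the medians and to 1 with centring on the spike controls. The quinone reductase Nqo1 gave 2868 units in eosinophils against 75.8 units in dendritic cells, at least 21.3-fold. Gclm, a subunit of the enzyme that starts glutathione synthesis, gave 612.6 units in eosinophils against 120.9 units in dendritic cells, at least 4.55-fold. Gsr, glutathione reductase, gave 11733 units in eosinophils against 2616 units in dendritic cells, 4.49-fold, with a second probe set at 1.85-fold. The cystine transporter Slc7a11 gave 366.9 units in eosinophils against 156.1 units in dendritic cells, 2.35-fold. Other members of the list were brighter in dendritic cells, with 0 past 2-fold. These were Srxn1, Gclc, Txn1 and Txnrd1, at log2 differences of -0.71, -0.62, -0.31 and -0.17. The signs of Gclc, Txn1 and Txnrd1 turned under another scaling.

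Control probe sets for the 3' and 5' ends of Actb stood in a ratio of 6.38 in eosinophils and 9.0 in dendritic cells, and those of Gapdh in a ratio of 9.81 in eosinophils and 6.58 in dendritic cells. Of 11 housekeeping genes, 1, the ribosomal protein gene Rplp0, was at least 4-fold apart, with 1094 units in eosinophils against 9630 units in dendritic cells. Pgk1 (2893 units in eosinophils, 11357 units in dendritic cells) and Eef1a1 (13228 units in eosinophils, 29461 units in dendritic cells) were brighter in dendritic cells, and Tbp (1247 units in eosinophils, 513.4 units in dendritic cells) in eosinophils.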
